A study of Mus musculus with 24 samples.

Results

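The tumour suppressor p53 is encoded in the mouse by Trp53, and 9 of the genes it is known to activate were followed together with it: Mdm2, Cdkn1a, Ccng1, Trp53inp1, Phlda3, Zmat3, Bbc3, Bax and Eda2r. These 10 genes were taken by symbol from a table of read counts of 24594 genes, and all 10 had enough counts to be tested, as had 15682 genes in all. Their mRNA was measured by RNA-seq in 24 libraries of mouse embryonic stem cells (mESCs), 11 of wild-type (WT) cells and 13 of lines in which 1 accessory subunit of the ISWI chromatin remodelers was targeted. Trp53 mRNA was slightly higher in the lines Rsf1Δ, WstfΔ and BptfΔ than in WT cells of the same batch. The targets moved in different directions. Those that passed the test fell in Rsf1Δ, Tip5Δ and Acf1Δ and rose in WstfΔ, in the line labelled Cecr2Δ and, apart from Zmat3, in BptfΔ. The largest change was that of Bbc3 in WstfΔ.

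The p53 protein is a transcription factor that binds DNA as a tetramer at sites made of a pair of short half-sites. It is held low by the ubiquitin ligase MDM2, whose own gene is a p53 target, so that the pair forms a negative feedback loop. DNA damage and other stresses stabilize p53 mainly at the protein level, and the genes it then activates arrest the cell cycle or promote apoptosis. Embryonic stem cells express Trp53 strongly and are known for a weak cell cycle arrest through Cdkn1a.

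All cells were of 129S6/SvEvTac background, untreated, and grown with serum and leukemia inhibitory factor on gelatin. ISWI remodelers combine an ATPase, SNF2H or SNF2L, with accessory subunits, and CRISPR-Cas9 was aimed at the gene of 1 such subunit per line. The groups were 2 libraries each of Rsf1Δ (the RSF complex) and WstfΔ (Baz1b, the WICH complex) with 2 WT libraries in batch A, 2 of Tip5Δ (Baz2a, the NoRC complex) with 2 WT in batch B, 2 of BptfΔ (the NURF complex) with 2 WT in batch C, 3 labelled Cecr2Δ (the CERF complex) with 3 WT in batch D, and 2 of Acf1Δ (Baz1a, the ACF complex) with 2 WT in batch E. Each line stood for its genotype as 1 clone, so a difference of the clone and an effect of the deletion cannot be told apart. The study describes its replicates as independent and biological, and the labels do not name separate cultures. The p-values measure only the spread between these libraries.

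Total counts ranged from 13.4 to 36.7 M (mega) per library, with a median of 25.0 M. The mRNA of the targeted gene was lower than in WT in Rsf1Δ, WstfΔ, BptfΔ and Acf1Δ, with log2 fold changes between -2.40 and -1.72. Baz2a mRNA in Tip5Δ changed by only -0.26 ± 0.09 (standard error; adjusted p = 0.0533, edgeR), and the libraries labelled Cecr2Δ had more Cecr2 mRNA than WT (0.37 ± 0.07), so that these are named by their label throughout. The study's methods state that clones were checked by western blot and DNA sequencing. By the study's report, the deleted protein was not detectable on western blots in any of the deletion lines. The mRNA counts here measure neither protein nor DNA sequence. The 6 mESC markers exceeded 3 counts in every group. Their summed level was 2527 to 2618 counts scaled to library size, in CPM, in WT of batch A, 3464 to 3468 in Rsf1Δ and 3763 to 3809 in WstfΔ, and it was 2611 to 2677 in WT of batch C and 3898 in both BptfΔ libraries. It was 3762 to 3911 in Acf1Δ (WT 3182 to 3390.3), 3892 to 4117 in the libraries labelled Cecr2Δ (WT 3436 to 3705) and 3020.0 to 3119 in Tip5Δ (WT 3086 to 3095). In Acf1Δ 2 of the 6 were called higher and 2 lower, with a median log2 fold change of 0.01. The summed level of 6 primitive endoderm markers, none of them at 0, moved with the lines: it was 322 to 329 CPM in the WT libraries of batch A but 136 to 144 in Rsf1Δ and 131 to 137 in WstfΔ. In Tip5Δ it was 71.9 to 78.7 (WT 326 to 345), in BptfΔ 13.5 to 13.8 (WT 140.3 to 149), in the libraries labelled Cecr2Δ 28.7 to 32.8 (WT 97.5 to 114) and in Acf1Δ 261 to 298 (WT 235 to 241). Of 4 fibroblast markers (Col1a1, Col1a2, Col3a1 and Thy1), 3 fell in every line but the one labelled Cecr2Δ, where none was called. In WstfΔ the fourth, Thy1, rose, and their summed level there was 17.3 to 19.8 CPM against 18.2 to 18.9 in WT. The sum of 4 neural markers was 18.6 to 19.8 CPM in BptfΔ against 9.05 to 9.66 in WT, and 12.5 to 13.5 in Acf1Δ against 18.8 to 21.6. Among them Sox1 rose in Rsf1Δ, WstfΔ and BptfΔ, while Pax6 fell in WstfΔ, BptfΔ and Acf1Δ and rose in Tip5Δ, and Neurog2 was at 0 in some WT groups and some lines. The sum of 4 mesoderm markers was 8.41 to 9.10 in WstfΔ against 4.51 to 5.94 in WT, where Eomes rose. The part of such cells in the changes of p53 target genes was not tested, and in such bulk samples fewer cells of a type and less RNA per cell cannot be told apart.

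The promoters of the members are shown first, since they can be searched for the decamer that forms a p53 half-site. RefSeq windows from 250 bases before to 50 bases after the start site (build GRCm38.p6) were available for 8 of the 10 genes, 11 windows in all. Windows for Trp53inp1 and Zmat3 were not used here. The p53 consensus decamer, searched on both strands, was found in 5 of the 11 windows (45.455%), against 2745 of 32851 windows of all genes (8.356%). A full site, defined as 2 decamers at most 13 bases apart, was found in 1 member window, the first window of Cdkn1a, and in 24 of all windows (0.073%). This window, chr17:29090729-29091028 on the plus strand, is printed whole with both decamers in capitals, which lie 73 and 51 bases before its start site. The second Cdkn1a window, chr17:29093519-29093818, belongs to a start site further downstream. The search allowed no mismatch, so half-sites that differ from the consensus were not marked. For Mdm2 (chr10:117710910-117710969, minus strand), Ccng1 (chr11:40755437-40755496, minus strand), Trp53 (chr11:69580259-69580318, plus strand) and Bax (chr7:45467065-45467124, minus strand), the 60 bases around the single decamer are printed, to show how these differ from Cdkn1a.
Cdkn1a: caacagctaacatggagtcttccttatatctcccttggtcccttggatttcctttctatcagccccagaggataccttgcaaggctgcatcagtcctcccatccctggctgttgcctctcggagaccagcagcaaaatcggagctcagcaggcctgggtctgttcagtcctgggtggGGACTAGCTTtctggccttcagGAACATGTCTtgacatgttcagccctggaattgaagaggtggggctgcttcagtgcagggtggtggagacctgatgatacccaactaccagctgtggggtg
Mdm2: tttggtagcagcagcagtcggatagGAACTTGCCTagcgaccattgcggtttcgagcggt
Ccng1: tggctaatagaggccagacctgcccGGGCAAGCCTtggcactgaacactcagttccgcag
Trp53: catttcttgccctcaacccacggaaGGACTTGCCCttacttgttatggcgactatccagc
Bax: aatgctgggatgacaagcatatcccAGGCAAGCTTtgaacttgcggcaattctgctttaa
A match describes letters in these windows and was not a measurement of binding. No decamer was found in the windows of Phlda3, Bbc3 and Eda2r or in the second window of Cdkn1a, and p53 is known to bind many of its genes outside such windows.

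In WT cells, levels were first set side by side per kilobase of the gene width in the authors' table, as normalized CPM per kilobase. Bax, which encodes a protein that permeabilizes the mitochondrial membrane in apoptosis, was highest with 135 ± 15.1 (SD, n = 11 libraries), followed by Trp53 with 113 ± 35.3 and Ccng1, which encodes cyclin G1, with 94.4 ± 30.2. Phlda3 (39.2 ± 12.5), Mdm2 (38.9 ± 10.3) and Trp53inp1 (28.9 ± 10.4) formed a middle range. Zmat3 (16.7 ± 5.71), Cdkn1a (15.8 ± 8.52), Eda2r (11.8 ± 3.32) and Bbc3 (8.18 ± 4.32) were lowest. The ranges over the 11 libraries overlapped between all neighbours in this order. Within libraries, however, Ccng1 exceeded Phlda3, Mdm2 exceeded Trp53inp1 and Trp53inp1 exceeded Zmat3 in 11 of 11, whereas Trp53 exceeded Ccng1 in 5 of 11 and Phlda3 exceeded Mdm2 in 7 of 11.

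WT cells of different batches differed in all 10 genes (edgeR F test over the 5 batches, adjusted p under 0.01), a share to be read against 69.4% of 15413 genes tested. Cdkn1a, which encodes the cyclin-dependent kinase inhibitor p21, varied most. It was at 10.7 and 9.51 normalized CPM in batch C but at 66.8 and 68.8 in batch E, a 6.70-fold difference between batch means. Bax varied least, by 1.39-fold. Of the 10, 6, namely Mdm2, Ccng1, Trp53inp1, Phlda3, Bbc3 and Eda2r, were lowest in batch D, whereas Trp53 itself was highest there. Except for Bax, the batch means differed by 1.94-fold or more, which exceeded every change between a line and its WT but that of Bbc3 in WstfΔ. Each line was compared with the WT of its batch through a batch term, taken from the study's model and fitted over all 24 libraries.

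**Figure D1:**
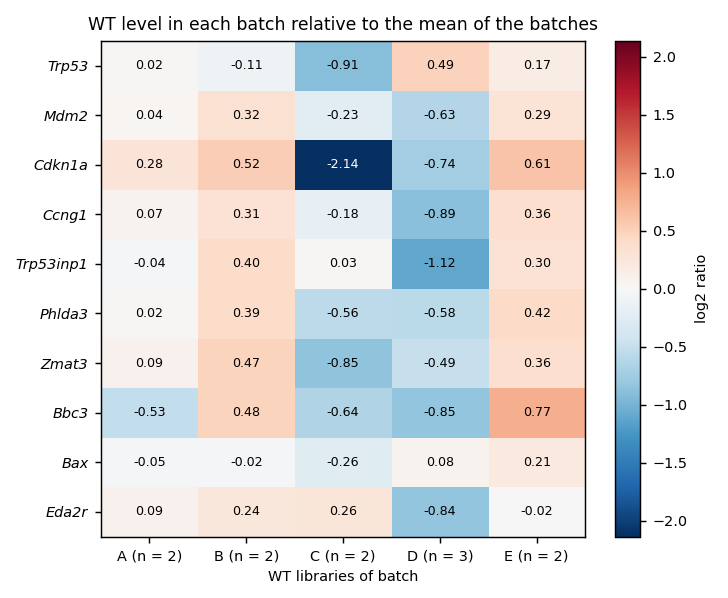
Log2 ratio of the mean WT level (normalized CPM) in each batch to the mean of the 5 batch means, for the 10 genes, with the number of WT libraries per batch on the horizontal axis. Cdkn1a is lowest in batch C (-2.14), and most targets are lowest in batch D, where Trp53 is highest (0.49).

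Trp53 (gene ID 22059, chr11:69580348-69591873, in build mm10) mRNA was at 456 and 438 normalized CPM in the WT libraries of batch A, at 560.1 and 558 in Rsf1Δ and at 542 and 555 in WstfΔ. Both lines lay above both WT libraries. In each line the difference was small and passed the test (log2 fold change 0.32 ± 0.09, adjusted p = 0.00435 in Rsf1Δ; edgeR quasi-likelihood test with Benjamini-Hochberg adjustment over all genes, values after ± being standard errors). In WstfΔ the log2 fold change was 0.30 ± 0.09 (edgeR adjusted p = 0.00571). Both calls were lost when any 1 of the libraries compared was left out and when replicate number was a block. In batch C, Trp53 was at 237 and 232 in WT and 288 and 317 in BptfΔ, again without overlap (log2 fold change 0.37 ± 0.09, adjusted p = 8.90e-04, edgeR). That call was lost without the second WT or the second BptfΔ library, and the sign turned (-0.59) when batches were ignored. In the other 3 lines Trp53 did not pass the test, with log2 fold changes of 0.12 in Tip5Δ, 0.14 in Acf1Δ and 0.15 in the line labelled Cecr2Δ. The 3 WT libraries of batch D spread widely (534, 728 and 588), and without the highest of them Trp53 passed the test in the libraries labelled Cecr2Δ (0.29, edgeR adjusted p = 0.000161). Without the lowest of them the log2 fold change was 0.06 (edgeR adjusted p = 0.563). In Tip5Δ Trp53 passed with only its own WT libraries (0.12, edgeR adjusted p = 0.00385). The sign was thus positive in all 6 lines. A processed pseudogene of Trp53 lies on chromosome 17, and how the counting treated reads that match both is not given in the sources used here.

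Mdm2 and Ccng1 encode proteins that act back on p53: MDM2 marks it for degradation and cyclin G1 recruits a phosphatase that activates MDM2. Mdm2 (gene ID 17246, chr10:117688875-117710758) was at 211 and 209 normalized CPM in WT of batch A and at 157 and 152 in Rsf1Δ, and fell there (log2 fold change -0.44 ± 0.07, adjusted p = 8.02e-06, edgeR). In batch E it was at 262 and 239 in WT and 174 and 187 in Acf1Δ (log2 fold change -0.47 ± 0.07, adjusted p = 2.83e-06, edgeR). In BptfΔ the direction was opposite, with 244 and 246 against 177 and 171 in WT (log2 fold change 0.49 ± 0.07, adjusted p = 7.15e-07, edgeR). The groups did not overlap in any of these lines. Levels in WstfΔ (199.7 and 199) and in Tip5Δ (251 and 244, WT 257 and 255) did not pass the test. In the libraries labelled Cecr2Δ, Mdm2 was at 112, 119 and 118 against 147, 125 and 124, which missed the threshold (edgeR adjusted p = 0.0118). It passed with DESeq2, with other scalings, without a filter on low counts, without a batch term, and without the second or the third WT library. In the other fits, such as those with only its own WT libraries or without the first WT library, Mdm2 missed it (edgeR adjusted p up to 0.125).

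Ccng1 (gene ID 12450, chr11:40748552-40755309) changed in the same 3 lines and directions as Mdm2. It was at 365 and 363 in WT of batch A and 279 and 261 in Rsf1Δ (log2 fold change -0.43 ± 0.07, adjusted p = 8.90e-06, edgeR). In Acf1Δ it was at 308 and 292 against 468 and 421 (log2 fold change -0.57 ± 0.07, adjusted p = 1.50e-07, edgeR), the largest decrease of this gene. It rose in BptfΔ from 303 and 308 to 404 and 394 (log2 fold change 0.39 ± 0.07, adjusted p = 2.12e-05, edgeR). In Tip5Δ (364 and 374 against 439 and 421) the groups did not overlap, but the adjusted p of 0.0217 (edgeR) missed the threshold. There Ccng1 gained a call with library size only and with only its own WT libraries. WstfΔ (0.09) and the libraries labelled Cecr2Δ (-0.02) gave small log2 fold changes that did not pass.

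Cdkn1a (gene ID 12575, chr17:29090979-29100722), with a full site in its first window, was at 56.7 and 51.5 normalized CPM in WT of batch A and at 38.1 and 38.6 in Rsf1Δ (log2 fold change -0.50 ± 0.07, adjusted p = 5.15e-06, edgeR). It fell likewise in Tip5Δ, from 65.8 and 62.2 to 45.3 and 46.7 (log2 fold change -0.48 ± 0.07, adjusted p = 1.72e-05, edgeR). In Acf1Δ it was at 54.5 and 56.4 against 66.8 and 68.8 (log2 fold change -0.29 ± 0.07, adjusted p = 0.00141, edgeR), a call that was lost without the second WT or the first Acf1Δ library and in a fit with only its own WT libraries. In that fit the Cdkn1a log2 fold change in Acf1Δ was -0.27 (edgeR adjusted p = 0.0917). In none of these lines did the libraries overlap with WT. In BptfΔ Cdkn1a rose from 10.7 and 9.51 to 18.4 and 18.5 (log2 fold change 0.87 ± 0.10, adjusted p = 3.67e-08, edgeR). It also rose in the libraries labelled Cecr2Δ, which were at 34.8, 32.8 and 33.2 against 25.7, 29.0 and 25.0 (log2 fold change 0.34 ± 0.06, adjusted p = 1.03e-04, edgeR). WstfΔ (56.9 and 59.6) did not pass (0.11). The BptfΔ level, although raised within its batch, stayed below the WT level of every other batch. Without a batch term the sign turned in BptfΔ (-1.22), Tip5Δ (0.10), Acf1Δ (0.37) and the libraries labelled Cecr2Δ (-0.35). In the annotation 273 exon bases of Cdkn1a overlap a gene model on the opposite strand, and whether reads were counted by strand is not given in the sources used here.

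Trp53inp1, Phlda3 and Zmat3 rose in WstfΔ to levels above those of all 11 WT libraries. Trp53inp1 (gene ID 60599, chr4:11156441-11174379), whose product promotes p53-dependent apoptosis and autophagy, was at 189 and 193 in WT of batch A and 309 and 308 in WstfΔ (log2 fold change 0.69 ± 0.06, adjusted p = 1.23e-09, edgeR). It rose as well in BptfΔ, at 322 and 307 against 200.0 and 200.2 (log2 fold change 0.65 ± 0.06, adjusted p = 2.38e-09, edgeR). The BptfΔ libraries, too, exceeded all 11 WT libraries, as did those of Tip5Δ, whose change against their own WT was not called. In the libraries labelled Cecr2Δ it was at 118, 125 and 128 against 88.3, 89.8 and 93.6 (log2 fold change 0.45 ± 0.05, adjusted p = 2.22e-07, edgeR), a change whose sign turned (-0.60) without a batch term. In Acf1Δ it fell, from 248 and 237 to 166 and 139 (log2 fold change -0.67 ± 0.06, adjusted p = 6.77e-09, edgeR). Rsf1Δ (-0.15) and Tip5Δ (0.07) did not pass.

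Phlda3 (gene ID 27280, chr1:135766085-135769134), which encodes an inhibitor of the kinase AKT, was at 65.7 and 62.0 in WT of batch A, 46.4 and 47.9 in Rsf1Δ and 99.9 and 107 in WstfΔ. The lines thus lay on opposite sides of the same WT libraries. Both changes passed the test, with log2 fold changes of -0.44 ± 0.09 in Rsf1Δ (edgeR adjusted p = 3.55e-04) and 0.70 ± 0.09 in WstfΔ (edgeR adjusted p = 2.43e-07). It rose in BptfΔ from 42.4 and 43.1 to 62.9 and 68.6 (log2 fold change 0.62 ± 0.09, adjusted p = 2.42e-06, edgeR). A decrease in Tip5Δ, from 85.2 and 79.6 to 64.4 and 65.3 (log2 fold change -0.34 ± 0.09, adjusted p = 0.00569, edgeR), was lost when any 1 library was left out and under the replicate block, and became 0.09 without a batch term. The groups overlapped in Acf1Δ (0.07) and in the libraries labelled Cecr2Δ (-0.08).

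Zmat3 (gene ID 22401, chr3:32334792-32365665) encodes a zinc finger protein that binds RNA and acts as a tumour suppressor. It was at 141 and 153 in WT of batch A and 261 and 262 in WstfΔ (log2 fold change 0.83 ± 0.07, adjusted p = 9.01e-11, edgeR). In BptfΔ it was the 1 member that fell, from 71.8 and 81.5 to 64.8 and 62.2 (log2 fold change -0.27 ± 0.07, adjusted p = 0.00271, edgeR), a call lost without the second WT or the second BptfΔ library. It rose in the libraries labelled Cecr2Δ, at 115, 115 and 121 against 94.5, 102 and 99.9 (log2 fold change 0.24 ± 0.05, adjusted p = 0.00130, edgeR), a call lost without the first WT or the third Cecr2Δ library and turned (-0.21) without a batch term. Rsf1Δ (0.11), Tip5Δ (-0.09) and Acf1Δ (-0.16) did not pass.

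Of the genes of apoptosis proper, Bbc3 (gene ID 170770, chr7:16308398-16318334), which encodes the BH3-only protein PUMA, was at 12.6 and 12.6 in WT of batch A and 23.4 and 28.0 in WstfΔ. It rose (log2 fold change 1.03 ± 0.17, adjusted p = 1.66e-05, edgeR), the largest of the 60 changes of a member in a line. Bbc3 was also the member with the lowest mean WT level per kilobase over all batches, although Cdkn1a was lower in batch C and Eda2r exceeded Bbc3 in only 9 of the 11 libraries. In no other line did Bbc3 pass the test, with log2 fold changes between -0.21 in Rsf1Δ and 0.40 in the libraries labelled Cecr2Δ. It gained a call in BptfΔ and Tip5Δ with only their own WT libraries, in BptfΔ and the line labelled Cecr2Δ without a filter on low counts, and in the latter also without the second WT library. Bax (gene ID 12028, chr7:45461695-45466903) rose in BptfΔ, from 179 and 174 to 209 and 213 (log2 fold change 0.26 ± 0.07, adjusted p = 0.00157, edgeR), a call lost without the second WT or the second BptfΔ library and near 0 (-0.01) without a batch term. In the other lines its log2 fold changes, from -0.04 to 0.17, did not pass, and 192 exon bases of Bax are shared with another gene model on the same strand. Eda2r (gene ID 245527, chrX:97333837-97377234), which encodes a member of the TNF receptor family, fell in Rsf1Δ from 81.0 and 72.9 to 61.5 and 62.0 (log2 fold change -0.32 ± 0.07, adjusted p = 0.00106, edgeR), a call lost without the first WT or either Rsf1Δ library. It rose in the libraries labelled Cecr2Δ, at 51.7, 51.8 and 53.8 against 38.9, 42.2 and 40.3 (log2 fold change 0.37 ± 0.06, adjusted p = 2.10e-05, edgeR), which turned to -0.40 without a batch term. In BptfΔ (0.20), Acf1Δ (-0.22), Tip5Δ (-0.18) and WstfΔ (0.15) it missed the threshold. Eda2r gained a call in BptfΔ and Tip5Δ with only their own WT libraries, and its result in Acf1Δ depended on the first Acf1Δ library.

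**Figure D2:**
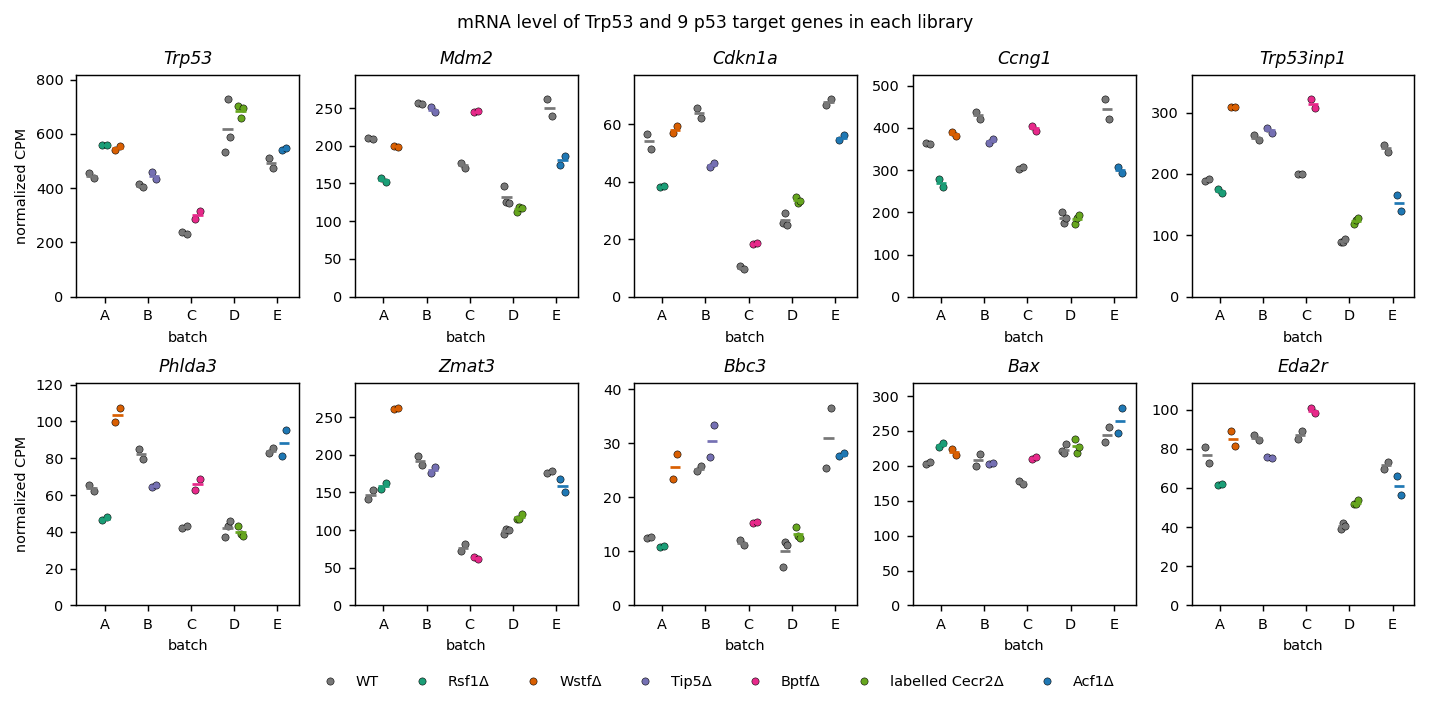
Level of each gene in each of the 24 libraries (normalized CPM, axes from 0), grouped by batch. Points are libraries, short bars are group means and colours are genotypes. Trp53inp1, Phlda3 and Zmat3 in WstfΔ lie above every WT library, and Cdkn1a in batch C lies below the other batches in both WT and BptfΔ.

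Counted by line, the members called (adjusted p under 0.01) were 6 of 10 in Rsf1Δ, where 20.6% of all genes tested were called, with 1 higher and 5 lower (7.45% and 13.1% of all genes). In WstfΔ 5 of 10 were called, all higher, against 34.7% of all genes, 16.4% higher and 18.3% lower. In Tip5Δ 2 of 10 were called, both lower, against 9.07%, 2.84% higher and 6.23% lower. With only the WT libraries of its batch in the fit, 6 were called in Tip5Δ, 2 higher and 4 lower, against 24.6% of all genes. In BptfΔ 8 of 10 were called, 7 higher and 1 lower, against 41.6%, 21.4% higher and 20.2% lower. In the libraries labelled Cecr2Δ 4 of 10 were called, all higher, against 18.4%, 9.52% higher and 8.83% lower. In Acf1Δ 4 of 10 were called, all lower, against 31.8%, 15.1% higher and 16.7% lower. A change over a factor of 2 was called for 1 member in 1 line, Bbc3 in WstfΔ, where 10.4% of all genes had one. That share was 5.91% in Rsf1Δ, 2.72% in Tip5Δ, 13.8% in BptfΔ, 4.45% in Acf1Δ and 3.11% in the line labelled Cecr2Δ. The median log2 fold change of the 10 members was -0.27 in Rsf1Δ, 0.22 in WstfΔ, -0.07 in Tip5Δ, 0.39 in BptfΔ, -0.19 in Acf1Δ and 0.20 in the line labelled Cecr2Δ, while that of all genes tested lay between -0.03 and 0.01 in each line. When 1 library was left out the count fell to 5 in BptfΔ without the second WT or the second BptfΔ library, where 32.8% and 31.1% of all genes were called, and was 7 for the libraries labelled Cecr2Δ without the second WT library (18.4% of all genes). In Tip5Δ it was 1 without any 1 of the 4 libraries (4.86% to 5.65%). Without a batch term, the count was 0 or 1 in each line, where 1.61% to 31.3% of all genes were called. Primitive endoderm markers were low both in Rsf1Δ, where most called members fell, and in BptfΔ, where most rose, and their part in the counts was not tested.

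**Figure D3:**
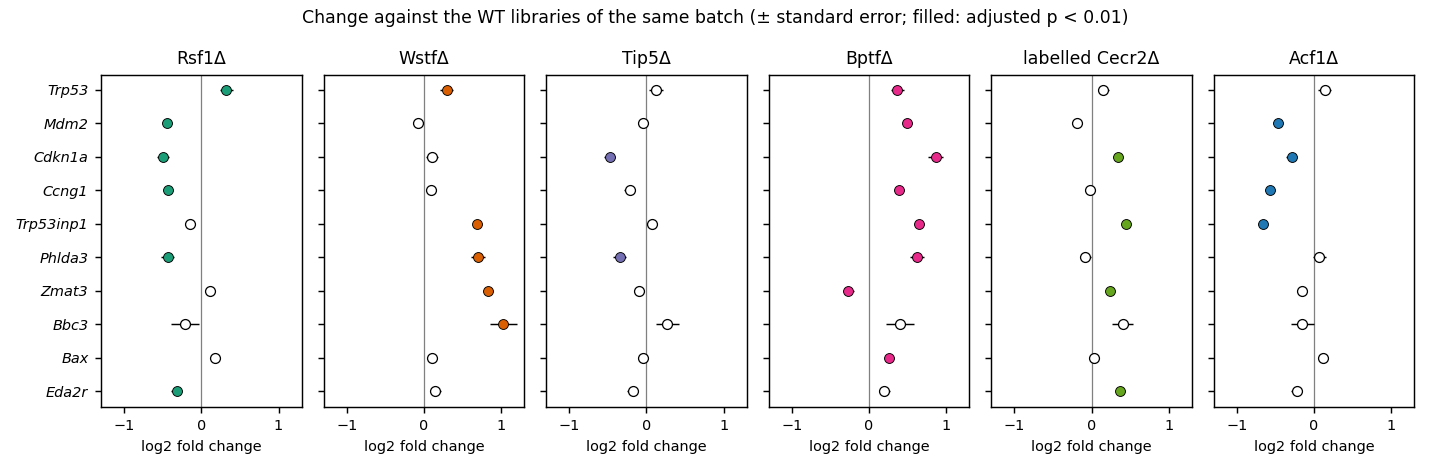
Log2 fold change of each gene in each line against the WT libraries of its batch, with standard errors as bars. Filled points passed an adjusted p of 0.01. Points lie mostly left of 0 in Rsf1Δ and Acf1Δ and mostly right of 0 in WstfΔ and BptfΔ, and Trp53 lies right of 0 in all 6 lines.

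Whether the changes differed between lines was tested directly, as the difference of 2 log2 fold changes, each against the WT of its own batch. A line with the higher change need not have the higher level. This was done for 15 pairs of lines and 10 genes, and 71 of the 150 differences passed (edgeR, adjusted over all genes within each pair). For Trp53 and for Bax 0 of the 15 pairs differed, which does not show that the lines were alike. Cdkn1a and Trp53inp1 each differed in 11 pairs, and Mdm2 and Phlda3 in 10. Rsf1Δ and WstfΔ, which share their WT libraries, differed in 8 of 10 members, where 33.3% of all genes differed. All 8 changes were higher in WstfΔ. The largest of these was Bbc3 with a difference of -1.24 ± 0.17, adjusted p = 1.69e-06 on the log2 scale (edgeR), followed by Phlda3 with -1.14 ± 0.09, adjusted p = 7.96e-11 (edgeR).

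WstfΔ and BptfΔ, the lines with the most increases, differed in 3 members, where 21.2% of all genes differed. The change of Zmat3 was higher in WstfΔ (difference 1.10 ± 0.10, adjusted p = 1.84e-09, edgeR). Those of Cdkn1a (-0.76 ± 0.12, adjusted p = 2.57e-05, edgeR) and Mdm2 (-0.57 ± 0.10, adjusted p = 3.88e-05, edgeR) were higher in BptfΔ, although the Cdkn1a level itself was lower there than in WstfΔ. The change in Acf1Δ was lower than that in WstfΔ for 8 members, where 34.9% of all genes differed, and lower than that in BptfΔ for 6, where 38.6% differed. The difference was largest for Trp53inp1 (1.36 ± 0.09, adjusted p = 3.72e-12 for WstfΔ minus Acf1Δ, edgeR). Rsf1Δ and Tip5Δ differed in 1 member, where 11.7% of all genes differed. BptfΔ differed from Rsf1Δ in 7 members (30.7% of all genes), from Tip5Δ in 6 (30.4%) and from the line labelled Cecr2Δ in 5 (34.2%). All 6 changes that differed from those in Tip5Δ were higher in BptfΔ. The line labelled Cecr2Δ differed from Acf1Δ in 6 members (31.9%), each with the lower change in Acf1Δ, from Rsf1Δ in 4 (16.1%), from Tip5Δ in 4 (8.37%) and from WstfΔ in 2 (23.4%). Tip5Δ differed from WstfΔ in 5 members (23.6%) and from Acf1Δ in 4 (24.4%), and Rsf1Δ from Acf1Δ in 2 (14.8%).

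Across the 24 libraries, with the WT mean of each batch subtracted from the log2 level, 39 of the 45 pairs of members had a positive Pearson correlation, and the median was 0.45. The closest pair was Mdm2 and Ccng1 (r = 0.90, n = 24), and Cdkn1a with Eda2r reached 0.80. These libraries share lines and batches, so r describes them and was not tested. The share of positive pairs among other genes was not determined, so these values show no closeness particular to the members. Among 12227 genes, the nearest in pattern to Cdkn1a was Slc39a11 (r = 0.97), and to Trp53inp1 it was Chmp4c (0.98). For Mdm2 it was Rell1 (0.95), for Ccng1 Irak4 (0.95), for Phlda3 Rnpepl1 (0.95) and for Zmat3 Aldoc (0.94). Trp53 was closest to Agfg1 (0.90), Bbc3 to Scarb1 (0.92), Bax to Gpr137 (0.91) and Eda2r to AW554918 (0.93). In no case was the closest gene another of the 10 members.

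The wider p53 network was described by lists of 46 further target genes, 35 regulators of p53 and 14 cell cycle genes of the DREAM complex, through which p53 and p21 are known to repress the cell cycle. Of the 46 targets, 15 were higher and 8 lower in WstfΔ (50% called, against 34.7% of all genes), and 15 higher and 5 lower in BptfΔ (43.5% against 41.6%). In Acf1Δ 5 were higher and 22 lower (58.7% against 31.8%), and in Rsf1Δ 6 were higher and 15 lower (45.7% against 20.6%). Tip5Δ had 5 higher and 8 lower (28.3% against 9.07%), and the libraries labelled Cecr2Δ 12 and 6 (39.1% against 18.4%). With only their own WT libraries, Acf1Δ had 2 higher and 11 lower, against 16.9% of all genes. The libraries labelled Cecr2Δ then had 6 higher and 4 lower, against 13.6%. In Tip5Δ the 13 calls fell to between 4 and 7 without any 1 of the 4 libraries, where 4.86% to 5.65% of all genes were called. The share in BptfΔ was thus near that of all genes. The median log2 fold change was 0.19 in WstfΔ, 0.14 in BptfΔ, -0.29 in Acf1Δ, -0.04 in Rsf1Δ, -0.01 in Tip5Δ and -0.0029 in the line labelled Cecr2Δ. More targets were called higher than lower in WstfΔ and BptfΔ and more lower than higher in Acf1Δ and Rsf1Δ, and in Rsf1Δ more of all genes were lower as well (13.1% against 7.45%).

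Single targets of this list changed more than any member. Dram1, an autophagy gene, fell in all lines but Acf1Δ, most in BptfΔ (0.501 against 7.63 normalized CPM; log2 fold change -3.92 ± 0.22, adjusted p = 5.18e-14, edgeR). Gdf15, which encodes a stress-induced cytokine, rose in BptfΔ (6.74 against 1.13; log2 fold change 2.57 ± 0.29, adjusted p = 3.28e-08, edgeR) and in WstfΔ (2.23 ± 0.30). Sesn1, whose product restrains mTORC1, rose in BptfΔ (53.1 against 19.9; log2 fold change 1.41 ± 0.08, adjusted p = 8.34e-14, edgeR). Trp53i11 rose in WstfΔ (103 against 31.2; log2 fold change 1.72 ± 0.10, adjusted p = 6.35e-14, edgeR). Changes in WstfΔ over a factor of 2 were also found for Ddit4l (1.18 ± 0.12), Sfn (-1.21 ± 0.09) and Steap3 (-1.20 ± 0.09), and Lif, which encodes the cytokine present in the medium, fell in Rsf1Δ (-1.34 ± 0.16) and WstfΔ (-1.08 ± 0.17). Trp53cor1, a long noncoding RNA beside Cdkn1a, passed in the libraries labelled Cecr2Δ (1.65 ± 0.45) at a mean of 0.497 against 0.153 normalized CPM, near the limit of detection. The decreases of Dram1 occurred in lines in which the primitive endoderm markers were also low, and their part in it was not tested.

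**Figure D4:**
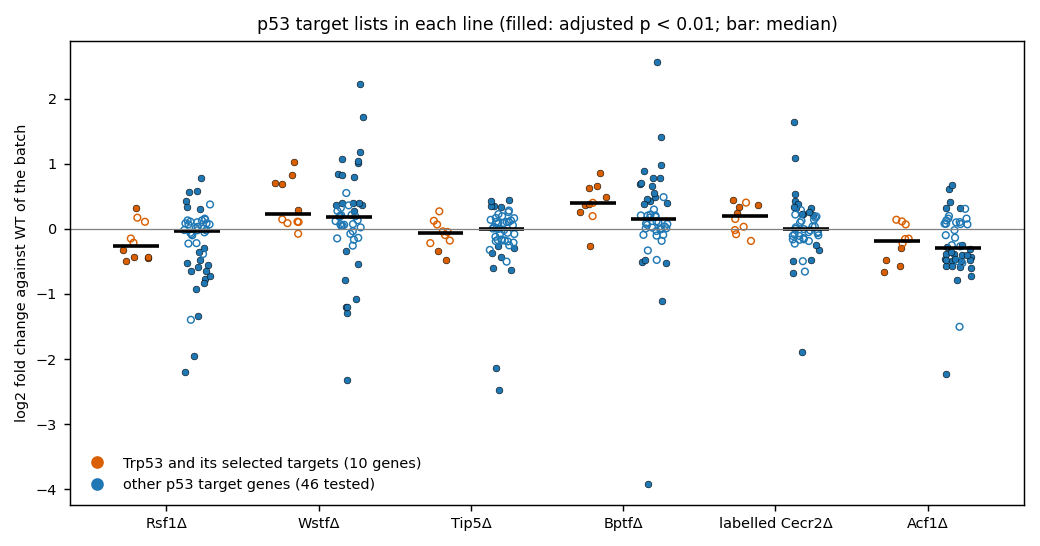
Log2 fold change against WT of the batch for the 10 members and for the 46 other p53 target genes, by line; filled points passed an adjusted p of 0.01 and black bars are medians. Both medians lie above 0 in WstfΔ and BptfΔ and below 0 in Acf1Δ, and single genes such as Dram1 in BptfΔ (-3.92) lie far from the rest.

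Among the 35 regulators, 2 in WstfΔ were higher and 10 lower (34.3% against 34.7% of all genes), in BptfΔ 9 and 7 (45.7% against 41.6%) and in Acf1Δ 6 and 10 (45.7% against 31.8%). Rsf1Δ had 4 higher and 2 lower (17.1% against 20.6%), Tip5Δ 4 and 0 (11.4% against 9.07%), and the libraries labelled Cecr2Δ 3 and 2 (14.3% against 18.4%). The 4 calls in Tip5Δ fell to 0 or 1 without any 1 of the 4 libraries and to 0 with replicate numbers as a block. Fewer regulators were also called in Rsf1Δ, WstfΔ and BptfΔ without any 1 of the libraries compared. Those in the line labelled Cecr2Δ fell to 3 without the first WT (15.3% of all genes) or without the second (14.4%) or the third (13.7%) library so labelled. In all these fits fewer of all genes were called as well. Cdkn2a, which encodes the MDM2 inhibitor ARF, fell in BptfΔ (0.383 against 2.33 normalized CPM; log2 fold change -2.60 ± 0.39, adjusted p = 3.11e-06, edgeR) and in Acf1Δ (2.78 against 7.57; log2 fold change -1.45 ± 0.19, adjusted p = 9.07e-07, edgeR). Setd7, a lysine methyltransferase that modifies p53, fell most in BptfΔ (3.14 against 22.0; log2 fold change -2.80 ± 0.16, adjusted p = 5.62e-14, edgeR), and also in WstfΔ (-1.39 ± 0.11) and Rsf1Δ (-1.01 ± 0.10). Wrap53, which starts 97 bases from Trp53 in the opposite direction, rose in Rsf1Δ (0.39 ± 0.09) and Acf1Δ (0.68 ± 0.09). In WstfΔ (0.11) and BptfΔ (-0.08), where Trp53 rose, Wrap53 did not pass. Of the 14 DREAM genes, 8 were called in WstfΔ (7 higher; 57.1% against 34.7% of all genes), 7 in Acf1Δ (all higher; 50% against 31.8%) and 6 in BptfΔ (5 higher; 42.9% against 41.6%). In Rsf1Δ 2 were higher (14.3% against 20.6%), in Tip5Δ 1 was higher (7.14% against 9.07%) and in the line labelled Cecr2Δ 1 was lower (7.14% against 18.4%). None changed by over a factor of 2. Of the p53 family, Trp63 was too low to be tested, and Trp73 fell in Acf1Δ (-0.76 ± 0.16) and rose in the libraries labelled Cecr2Δ (0.54 ± 0.15).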

How the data were processed

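RNA-seq counts of 24 libraries in 5 batches were used. Per the submitters' processing notes, reads were handled with bcl2fastq 2.17 and HISAT2 and aligned to mm10; the authors counted them per UCSC knownGene gene and deposited raw counts. The same deposited table gives each gene's width in bases (another quantity than counts), used for levels per kilobase only. The labels name a stranded kit and the paper's methods an unstranded one, and how reads with several matches were counted is not given in the sources used here. IDs were joined to RefSeq symbols (24570 of 24594).

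In R 4.3.3, edgeR 4.0.16 filtered genes by genotype (filterByExpr, 15682 left), scaled with TMM and fitted its quasi-likelihood model (legacy form) with batch and genotype over all 24 libraries. The design followed the study's own model. P-values were adjusted by Benjamini-Hochberg over all genes, genes were called at an adjusted p under 0.01, and a log2 fold change over 1 was needed in addition for a change over a factor of 2. Differences between lines came from the same fit and WT batches from a fit of the 11 WT libraries. Normalized CPM are TMM-scaled. Likeness was Pearson's r over genes with a mean log2 CPM of at least 1. Total counts were 13.4 to 36.7 M (mega) per library, and standard errors carry counting error and the spread between libraries.

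Named genes were the 10 members, the targeted genes, Wrap53, the closest genes in pattern, and up to 10 genes per list with a called change over a factor of 2, ranked by size; 1 gene that met this rule is not reported here. The members and lists were chosen with earlier results of these data known. Replicates of a group differed by 1.38 to 20.4 times the sampling noise (15 pairs), and each library was counted on its own. This excess does not show whether they came from separate cultures. On simulated data, 195 of 200 genes changed by a log2 of 1 in BptfΔ and 136 of 200 changed by 0.5 in WstfΔ were recovered among 15512 genes. The simulated counts had the same spread for every gene and group, and only genes above a minimum count were changed. The recovered share therefore does not carry over to the real libraries. Alternatives were edgeR's newer fit, DESeq2 1.42.0, library size only, DESeq2's size factors, no low-count filter, each line with its own WT only, no batch term, the replicate number as a block, a fold minimum and leaving out each library.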

Additional observations from a re-analysis of the deposited data

How the results depend on the processing

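For the 10 members, 696 of 800 recomputed log2 fold changes kept their side of the threshold (15 of them, uncalled, with the other sign), 75 lost and 19 gained a call, and 10 called values turned. All 10 turned without a batch term: Trp53 (-0.59), Cdkn1a (-1.22) and Bax (-0.011) in BptfΔ, Cdkn1a (0.10) and Phlda3 (0.085) in Tip5Δ, Cdkn1a (-0.35), Trp53inp1 (-0.60), Zmat3 (-0.21) and Eda2r (-0.40) for the libraries labelled Cecr2Δ, and Cdkn1a (0.37) in Acf1Δ. That fit compares each line with WT cells of all batches. The newer edgeR fit changed no member call.

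Without a batch term the members called were 0 in Rsf1Δ, WstfΔ, Tip5Δ and Acf1Δ and 1 in BptfΔ and the libraries labelled Cecr2Δ. In that fit 1.61%, 7.65%, 1.76%, 2.22%, 31.3% and 7.60% of all genes were called, in the same order. Other targets called were then 2 in Rsf1Δ, 3 in WstfΔ, 1 in Tip5Δ, 8 in BptfΔ, 6 for the libraries labelled Cecr2Δ and 0 in Acf1Δ. Regulators called were 0 in Rsf1Δ, WstfΔ, Tip5Δ and Acf1Δ, 11 in BptfΔ and 1 for the libraries labelled Cecr2Δ. With a 2-fold minimum, members called were 1 in WstfΔ and 0 in the other lines, other targets 3, 11, 2, 4, 3 and 1 in Rsf1Δ, WstfΔ, Tip5Δ, BptfΔ, Cecr2Δ-labelled and Acf1Δ libraries, and regulators 1, 1, 0, 2, 0 and 1. With only its own WT, Tip5Δ had 6 members and 10 regulators called, BptfΔ 25 regulators, the libraries labelled Cecr2Δ 10 other targets and 3 regulators, and Acf1Δ 13 other targets and 7 regulators, where 24.6%, 55.5%, 13.6% and 16.9% of all genes were called. Regulators called in Tip5Δ were 1 with library size only (9.18% of all genes) and 8 without a filter (8.73%), and in the libraries labelled Cecr2Δ 8 with DESeq2 (17.5%). The cause of these shifts was not tested.

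Same-numbered libraries did not deviate together (r from -0.067 to 0.045 over 13 pairs). In groups of 2 libraries both pairs give the same r, and Rsf1Δ and WstfΔ share their WT, so the 13 values are not independent. Whether the numbers mark libraries handled together cannot be told from them. With the replicate block, 3 member calls were lost (Trp53 in Rsf1Δ and WstfΔ, Phlda3 in Tip5Δ), members called in Tip5Δ were 1, regulators 0 in Tip5Δ and 3 for the libraries labelled Cecr2Δ (7.06% and 15.1% of all genes).

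When 1 library was left out, members called were 4 to 5 in Rsf1Δ, 4 in WstfΔ, 1 in Tip5Δ, 5 to 8 in BptfΔ, 3 to 7 for the libraries labelled Cecr2Δ and 3 to 4 in Acf1Δ. Other targets were 17 to 19, 21 to 23, 4 to 7, 18 to 19, 13 to 17 and 19 to 24 in the same order, and regulators 2 to 4, 7 to 11, 0 to 1, 11 to 13, 3 to 7 and 12 to 16. The shares of all genes called were 13.3% to 14.5%, 23.8% to 26.9%, 4.86% to 5.65%, 31.1% to 33.4%, 13.7% to 18.4% and 21.1% to 29.9%. All 10 members differed between WT batches in each of 11 such fits. An arm left with 1 library was assumed to vary like the others.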
